A study of Mus musculus with 198 samples.

Results

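Replication-dependent histone genes, which supply the histones that package newly copied DNA, were followed through 9 tissues of C57BL/6 mice. The genes were chosen by name: a feature counted as a member when its symbol began with Hist1h, Hist2h, Hist3h or Hist4h and its counts summed over every library came to 10 or more. Of 56332 features in the count table, 68 met this rule. A further 2 symbols had the right form and too few counts, Hist1h2aa with a total of 0 and Hist1h2ba with a total of 2. Just inside the limit lay Hist1h2al with 29 counts, Hist1h2aj with 34 and Hist1h1t with 75.

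The study compared 12 control mice (6 per sex) with 10 mice (5 per sex) that received an antibody against PAPP-A, a secreted protease that cleaves insulin-like growth factor binding proteins. The antibody was given for 17 weeks, and the labels describe the control arm only as control. The labels name no genotype beyond the strain and no age, and each mouse is 1 replicate. Bone marrow, spleen, skin, gonadal fat, subscapular fat, lung, kidney, liver and heart were sequenced in each animal, so each tissue has 22 libraries. These are whole tissues, so fewer cells of a type and less RNA per cell cannot be told apart in any value below.

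Replication-dependent histone genes are transcribed in S phase, when the cell copies its DNA, and their mRNAs are destroyed when copying stops. The mRNA ends in a short hairpin, the stem-loop, in place of a poly(A) tail. Stem-loop binding protein (SLBP) holds that hairpin, and a particle with the U7 small RNA cuts the transcript just behind it. Libraries made from total RNA keep such tailless mRNAs, whereas libraries selected on poly(A) lose most of them. Some members can also be made as spliced or polyadenylated mRNAs, a form known from cells that have left the cell cycle. Adult marrow is a site of continuous blood cell production, and the mouse spleen also makes red cells and dividing lymphocytes.

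The 68 members comprised 6 genes for the linker histone H1, which binds DNA between nucleosomes, and 19 for H2A, 18 for H2B, 12 for H3 and 13 for H4, the core histones. By name, 54 belonged to Hist1 on chromosome 13, 10 to Hist2 on chromosome 3, 3 to Hist3 on chromosome 11 and 1, Hist4h4, lay on chromosome 6 (GENCODE vM21, mm10). Hist1h2al, at chr13:51202727-51203065, lies far from the other Hist1 members, of which the nearest, Hist1h1a, ends at base 23764406. In that annotation 63 members have a single exon and 5 have more. Hist3h2bb-ps and Hist1h2al are processed pseudogenes and Hist1h2aj is an unprocessed one, and all of these are counted in their classes. Among the members, 14 pairs were divergent neighbours whose start sites lay 172 to 659 bases apart, so that 28 members shared the region between them with a neighbour. Copies are alike: 10 members had a coding sequence identical to that of another member, and in 42 members under 50% of 31-base windows were unique. Levels of single members are therefore less certain than sums, since reads from like copies can be split between them.

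The stem-loop was searched for because it is the feature that sets these mRNAs apart. A perfect stem of 6 base pairs that begins with GG, closed by a loop of 4 bases that begins with TT, occurred within 150 bases after the stop codon in 44 of 68 members (64.7%). The same pattern occurred in 16 of 58727 other coding transcripts (0.0272%). Of the 50 members whose annotated transcript runs at least 60 bases past the stop, 42 had it, so most members without a hit had an annotation that ends too early to show one. The commonest form, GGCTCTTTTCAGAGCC, was found in 26 members. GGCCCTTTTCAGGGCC was found in 7 members and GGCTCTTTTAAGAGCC in 6. The windows below, from GENCODE vM21 transcripts, show 1 example of each of the 6 forms and the 2 further members named for their levels or role. Capitals mark the stem and loop.
Hist1h1c: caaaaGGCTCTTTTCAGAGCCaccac
Hist1h2be: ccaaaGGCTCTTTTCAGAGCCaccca
Hist1h4c: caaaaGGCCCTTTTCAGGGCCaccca
Hist1h2bb: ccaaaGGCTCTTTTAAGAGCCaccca
Hist1h1t: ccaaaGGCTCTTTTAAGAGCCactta
Hist2h4: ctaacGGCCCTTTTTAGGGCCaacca
Hist1h4j: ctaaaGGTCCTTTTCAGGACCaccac
Hist2h2ac: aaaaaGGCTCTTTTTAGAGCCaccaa
The hairpin began 24 bases after the stop codon in Hist1h1c, 29 in Hist1h2be, 33 in Hist1h4c and 27 in Hist1h2bb. Hist1h2bc (chr13:23684199-23692908, plus strand, 2 exons) has 742 annotated bases after the stop and no hairpin of this pattern in the first 150. Hist2h2be (chr3:96221119-96223738, plus strand) has 2192 and likewise none. Both return below as the members least like the others in their levels.

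Promoters were compared because the members shared a tissue pattern. RefSeq promoters on GRCm38.p6, from 250 bases before to 50 after the transcript start, were matched for 52 of the 68 members. CCAAT, searched on both strands, was present in 44 of 52 (84.6%) and in 37.4% of 32851 mouse promoters of the same length. All matched H1, H2A, H2B and H3 members held it (6, 12, 13 and 10 promoters), and 3 of 11 H4 promoters did. TATAAA, searched on the transcribed strand, was present in 26 of 52 (50%) and in 8.32% of all promoters. AAACACA, known from H1 promoters and searched on both strands, occurred in 5 of 6 H1 promoters and in 7.18% of all promoters. GGTCC, known as the core of an H4 promoter element and searched on both strands, occurred in 10 of 11 H4 promoters (90.9%) and in 45.5% of all promoters. Motifs can share bases at their ends (TATAAA with AAACACA, and ATTGG, the reverse complement of CCAAT, with GGTCC), and a match describes the letters only. The 250 bases before the start of an H1, an H2B and an H4 gene, all on the minus strand, show where the motifs lie, with these motifs in capitals (a motif on the opposite strand appears as its reverse complement). The Hist1h2be window precedes a gene model with up to 2 exons (chr13:23583670-23621124). It lies inside the Hist1h1e gene (chr13:23620629-23622558, minus strand) and is not taken as typical of H2B promoters.
Hist1h1b, chr13:21780626-21780875: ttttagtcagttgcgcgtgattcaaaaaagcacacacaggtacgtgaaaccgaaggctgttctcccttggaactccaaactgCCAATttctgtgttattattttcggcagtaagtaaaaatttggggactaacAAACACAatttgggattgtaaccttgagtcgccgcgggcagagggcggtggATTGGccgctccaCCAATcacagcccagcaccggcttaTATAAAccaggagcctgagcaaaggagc
Hist1h2be, chr13:23621095-23621344: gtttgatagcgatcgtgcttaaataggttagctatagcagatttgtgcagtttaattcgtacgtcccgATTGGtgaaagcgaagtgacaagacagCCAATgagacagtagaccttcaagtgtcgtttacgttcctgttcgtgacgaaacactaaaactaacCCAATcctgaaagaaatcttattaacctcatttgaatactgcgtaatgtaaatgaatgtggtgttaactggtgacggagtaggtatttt
Hist1h4k, chr13:21750554-21750803: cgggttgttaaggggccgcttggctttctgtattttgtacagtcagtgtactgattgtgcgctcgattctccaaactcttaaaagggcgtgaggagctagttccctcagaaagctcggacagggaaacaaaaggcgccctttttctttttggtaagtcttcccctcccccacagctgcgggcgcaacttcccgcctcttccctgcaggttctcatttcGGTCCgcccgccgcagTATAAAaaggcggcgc

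Levels are given as CPM, counts scaled to 1000000 counts outside 9 very abundant features (mostly ribosomal RNA) that took 47.4% to 99.5% of a library. Outside them a library held 33377 to 4694597 counts (median 1099966.5). For 4 libraries the label is in doubt, because markers of their own tissue were low or few genes were counted: gonadal fat of treated mouse 58, lung of control mouse 68, heart of control mouse 22 and skin of treated mouse 36. Results that use these tissues were also computed without them. The heart of treated mouse 56 stood apart in the member genes themselves and is described at the end. The libraries were also of 2 kinds, told apart by the pseudogene Gm12481, which had counts in 59 libraries and none in 139. They differed in 4 Hist2 members as described below, and no source used here gives a reason.

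The summed level of the 68 members was highest in bone marrow and followed by spleen, skin and gonadal fat. In control mice the sum was 5365 ± 1206 CPM (SD, n = 12) in marrow, with a lowest, median and highest of 3068, 5058 and 6946. Spleen held 2591 ± 1136 CPM (1442, 2183 and 5137), skin 1633 ± 618 (1035, 1528 and 3320) and gonadal fat 1295 ± 708 (357, 1390 and 2826). Of these 4 tissues gonadal fat had the largest SD relative to its mean. Lung had 656 ± 151 CPM, subscapular fat 571 ± 174, kidney 519 ± 101, liver 374 ± 91.2 and heart 317 ± 80.6. Every neighbouring pair in this order overlapped. The marrow exceeded the spleen of the same mouse in 11 of 12 mice, and skin exceeded gonadal fat in 7 of 12, the least clear step along with subscapular fat over kidney (7 of 12). The mean marrow sum was 2.07 times the spleen's (SD over mice 1.03) and 6.999 times the mean of the other 7 tissues (SD 1.94).

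**Figure D1:**
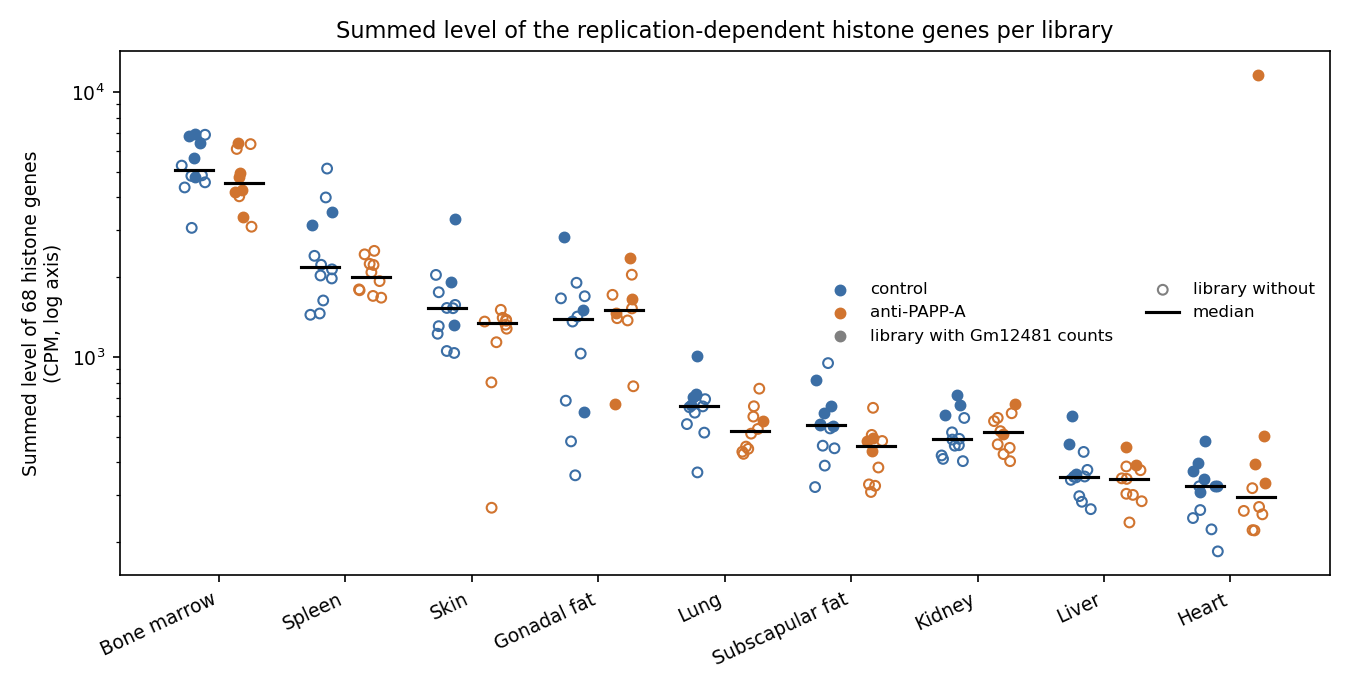
Summed CPM of the 68 replication-dependent histone genes (log axis) in each library of the 9 tissues, control in blue and anti-PAPP-A in orange, with filled points for libraries with Gm12481 counts, open points for those without and a bar at the median. Control marrow lies between 3068 and 6946 CPM, and 1 treated heart lies at 11623, above every marrow library.

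All 5 classes contributed to the marrow sum. H4 genes together had 1586 ± 368 CPM in control marrow (SD, n = 12), H1 genes 1383 ± 286, H3 genes 885 ± 204, H2B genes 763 ± 190 and H2A genes 749 ± 232. Of single members, Hist1h1d held 6.54% of all member counts in marrow, Hist1h1c 6.32% and Hist1h1e 5.73%, all 3 linker histone genes. No single gene therefore made the marrow level. Since a longer transcript collects more counts, levels of different genes were compared per kilobase of annotated transcript. In several members that transcript runs far past the hairpin, behind which the mRNA is cut. Hist1h4c has 503 annotated bases after the stop with its hairpin at 33, and Hist1h4d 822 with it at 36. Such members would stand higher if their mRNA ended at the hairpin, so the order below holds for annotated lengths only. On that scale Hist1h4h led control marrow with 409 CPM per kilobase, followed by Hist1h4m with 389, Hist1h2bb with 372 and Hist1h1a with 361. Hist1h1c had 217 CPM per kilobase in marrow and Hist1h1d, whose annotated transcript is long, had 47.2. Hist1h2bc had 11.4 and Hist2h2be 4.17. In kidney the order differed, with Hist1h4c at 98.9 CPM per kilobase, Hist1h4h at 80.9 and Hist1h2bc at 77.8.

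In the H1 class, Hist1h1d had 351 ± 103 CPM in control marrow (169, 301 and 513; SD, n = 12), Hist1h1c 339 ± 39.8 (276, 344 and 415) and Hist1h1e 307 CPM (218, 307 and 398). In spleen they had 121, 176 and 145 CPM, respectively. In liver, kidney and heart Hist1h1d was lowest of the 3. Hist1h1c had 42.5 CPM in liver (20.7, 36.5 and 91.2), 75.3 in kidney and 66.4 in heart, and Hist1h1e had 45.1, 54.03 and 21.6, whereas Hist1h1d had 11.5, 3.69 and 4.30. Hist1h1a had 268 ± 79.7 CPM in marrow (132, 268 and 405) and 1.11 in heart. Hist1h1b had 117 CPM in marrow (77.5, 114 and 174) and 0.557 in liver. Hist1h1t, the testis linker histone gene, was at 1.02 CPM in marrow and listed at 0 in every control heart and subscapular fat library.

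For the core histones, the 3 highest members of each class in control marrow were taken. For H2A these were Hist1h2ap with 115 ± 55.4 CPM (0, 104 and 209), Hist1h2ai with 82.8 (20.1, 82.9 and 122) and Hist2h2aa2 with 79.2 ± 99.2 (0, 0 and 212). The median of 0 for Hist2h2aa2 reflects the 2 kinds of library. For H2B these were Hist1h2bb with 189 CPM (115, 176 and 291), Hist1h2be with 124 ± 28.1 (57.4, 124 and 166) and Hist1h2bg with 94.4. For H3 these were Hist1h3f with 152 CPM (97.6, 147 and 228), Hist1h3c with 135 and Hist1h3e with 96.1. For H4 these were Hist1h4c with 270 CPM (103, 266 and 391), Hist1h4d with 247 and Hist1h4h with 192. Each of these 12 core histone genes had its highest tissue mean in marrow. Among all members 63 did so.

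The 5 exceptions were few and mostly weakly expressed. Hist1h3a was level between spleen (39.0 CPM; 21.5, 32.1 and 77.1) and marrow (39.0 CPM; 22.1, 37.1 and 77.8). Hist3h2ba had 5.03 CPM in spleen and 1.68 in marrow, and Hist1h2al, with 0.317 CPM in gonadal fat, was barely detected anywhere. Hist1h2bc was highest in kidney, with 89.9 ± 26.0 CPM (34.9, 93.4 and 119; SD, n = 12), and next in liver with 69.4 ± 22.6 (35.6, 71.003 and 109). In marrow it had 13.2 ± 6.39 CPM (2.87, 15.9 and 23.2) and in spleen 10.0 ± 4.37 (0, 10.4 and 17.0). The kidney and liver libraries did not overlap those of marrow or spleen. Hist2h2be was highest in subscapular fat (12.4 CPM; 3.37, 13.7 and 24.99) and was the most even member, with a ratio of 3.91 between its highest and lowest tissue mean. Hist1h4h (6.68), Hist1h1c (7.98) and Hist1h2bc (8.95) followed among members not tied to the kind of library. The median over all 68 members of the ratio of marrow to the mean of the other 7 tissues was 9.04.

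**Figure D2:**
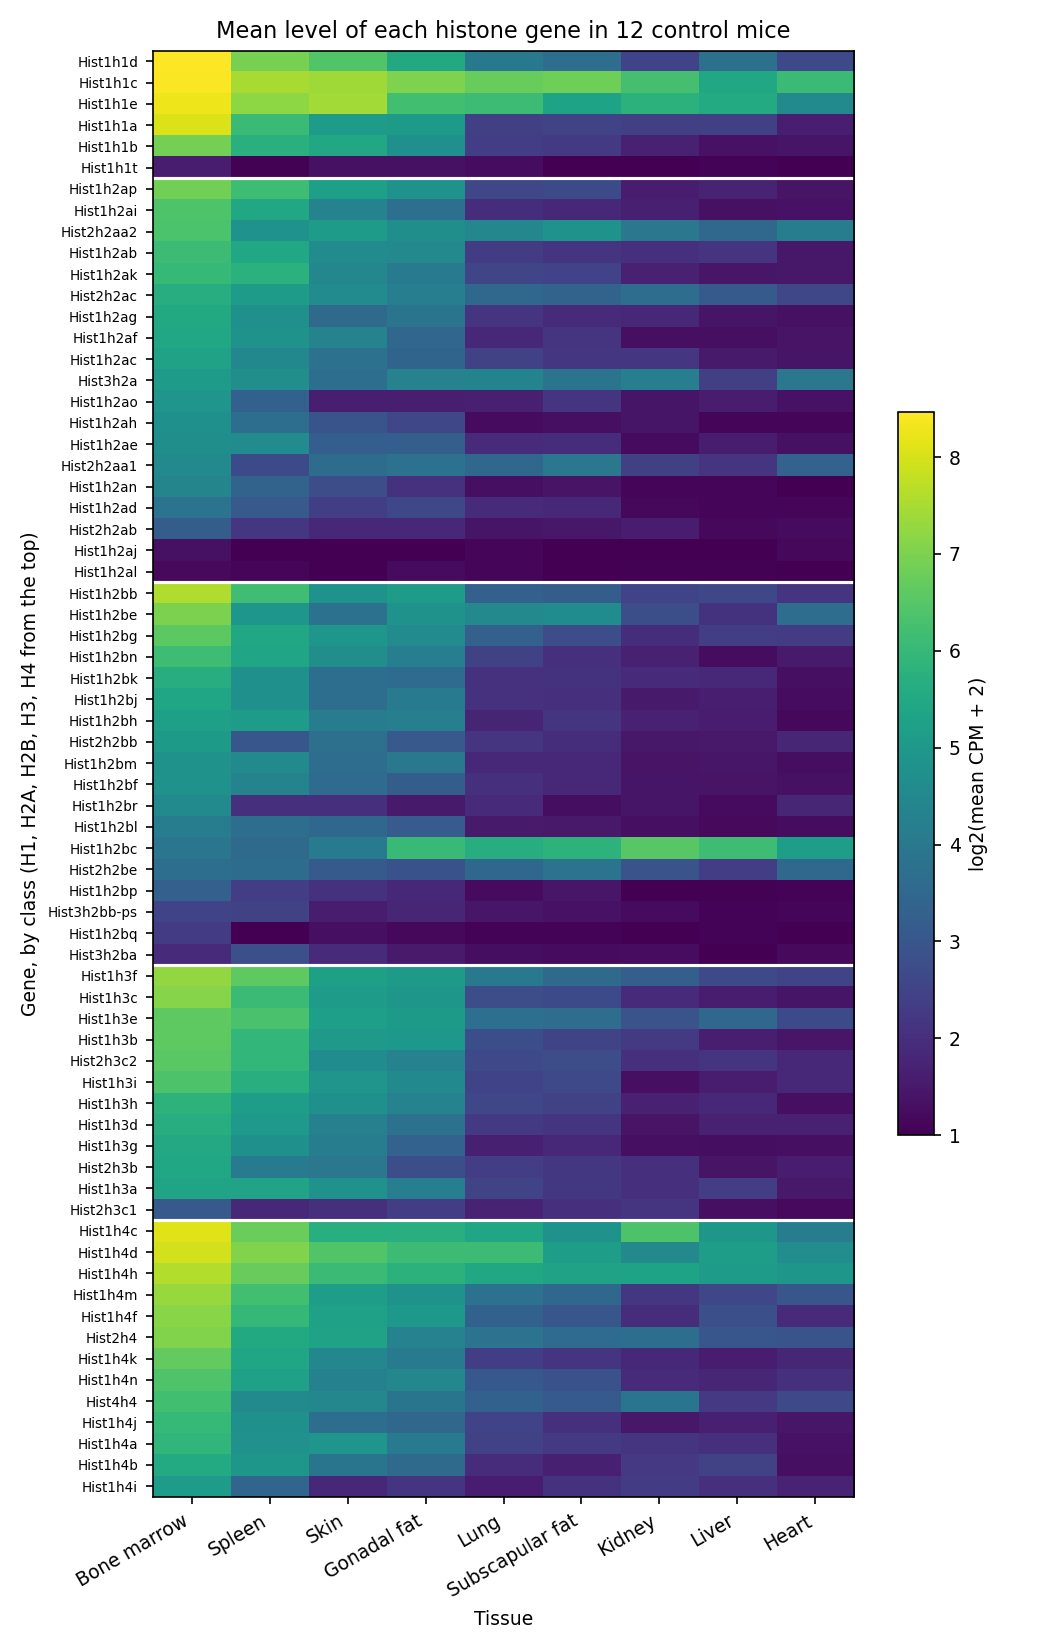
Mean level of each of the 68 members, as log2(mean CPM + 2) over the 12 control mice, with members in rows grouped by class and the 9 tissues in columns. Most rows are brightest in marrow, and Hist1h2bc is highest in kidney (89.9 CPM) and low in marrow (13.2 CPM).

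The number of members with a mean over 10 CPM was 59 in marrow, 52 in spleen, 49 in skin and 43 in gonadal fat, and 14 in lung and in subscapular fat, 11 in kidney, 9 in heart and 7 in liver. In the latter tissues a few genes made the sum. Hist1h1c held 21.0% of the member counts in heart, and Hist1h2bc held 17.3% in kidney and 18.5% in liver. In marrow Hist1h2bc held 0.245%. A group of 6 members listed as known for polyadenylated forms (Hist1h1c, Hist1h2bc, Hist2h2be, Hist2h2aa1, Hist3h2a and Hist4h4) held 9.13% of member counts in marrow and 9.48% in spleen. It held 42.7% in heart, 39.1% in kidney, 36.9% in subscapular fat and 33.02% in liver. These shares are of counts and not per length.

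Marrow was next compared with spleen in control mice, to ask how the 2 blood-forming tissues differ in these genes. Of 53 members tested, 44 were higher in marrow and 0 lower by edgeR's quasi-likelihood test at an adjusted p under 0.05, with a median log2 difference of 0.97. Over all 11514 genes tested, 35.5% were higher and 35.7% lower. The low-count filter was by tissue, so a member could be tested on its level in 1 tissue alone, and the count is not independent of the filter. DESeq2 called 45 members higher and limma-voom 43, both with 0 lower, and no member had an unadjusted p under 0.05 in the direction of spleen with any of the 3. With the mouse as replicate block, 47 were higher. Hist1h2be stood first: its control marrow libraries (57.4, 124 and 166 CPM) barely met its spleen libraries (9.83, 23.9 and 59.5 CPM), and the log2 difference was 2.24 ± 0.16 (SE, edgeR, adjusted p = 1.08e-12). Hist1h1a differed by 2.11 ± 0.22 on the log2 scale (adjusted p = 2.32e-09), from 268 CPM in marrow to 66.3 in spleen (14.4, 51.7 and 150). Hist1h4i differed by 2.07 ± 0.18, Hist4h4 by 1.87 ± 0.20, Hist2h4 by 1.68 ± 0.16 and Hist1h1d by 1.66 ± 0.21. Hist1h2bb, Hist1h4c, Hist1h4j and Hist1h4k followed with differences of 1.57, 1.48, 1.43 and 1.39.

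By class, all 13 tested H4 genes and all 5 tested H1 genes passed, with median log2 differences of 1.34 and 1.28. Of H3 genes 9 of 10 passed (median 0.76), of H2A genes 10 of 13 (median 0.85) and of H2B genes 7 of 12 (median 0.72). Among those that did not pass were Hist1h2bc, at 0.52 (adjusted p = 0.0645), and Hist2h2be, at 0.18 (adjusted p = 0.369). Hist1h3a was at 0.09 (adjusted p = 0.728). Hist3h2a, at 0.43, missed with an adjusted p of 0.105 and passed with the replicate block, at 0.036. Split by an annotated hairpin, 32 of 37 members with one passed (median 0.99) and 12 of 16 without one did (median 0.89). Many of the latter, such as Hist1h4k and Hist1h1b, have 0 annotated bases after the stop codon. The split therefore follows annotation length and does not tell genes with a hairpin from genes without.

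Against the mean of the 7 tissues other than spleen, 56 of 59 tested members were higher in marrow and 1 was lower, with a median log2 difference of 3.55. Over all 17552 genes tested, 38.5% were higher and 43.3% lower. The low-count filter was by tissue, so a member could enter through marrow alone, and its direction then came with the filter. Hist1h2br (21.3 CPM in marrow, 1.08 in the 7 tissues) and Hist1h2ao (27.8 and 1.14) are such cases by their levels. Hist2h3b, Hist2h2bb and Hist2h2aa2, also among the 56, depend on the kind of library. Hist1h1a differed most, by 5.19 ± 0.18 (SE, edgeR, adjusted p = 4.02e-49), from a mean of 11.3 CPM over the 7 tissues to 268 in marrow. Hist1h2ai followed with 4.83 ± 0.24 and Hist1h1b with 4.62 ± 0.21. Then came Hist1h2an, Hist1h3c, Hist1h4k, Hist1h2ap, Hist1h2ah, Hist1h1d and Hist1h3g, with log2 differences from 4.61 down to 4.23. The differences of the even members were smaller, 1.53 ± 0.11 for Hist1h1c and 1.88 for Hist1h4h. Only Hist1h2bc was lower in marrow, at -2.17 ± 0.24 (13.2 against 53.7 CPM, adjusted p = 5.54e-14). Hist2h2be (0.33, adjusted p = 0.0918) and Hist2h2aa1 (1.17, adjusted p = 0.0517) did not pass. Class medians were 4.29 for H1, 3.72 for H2A, 3.46 for H2B, 3.66 for H3 and 3.52 for H4. The count with the mouse as replicate block was 56 higher and 1 lower.

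Spleen against the 7 tissues other than marrow gave 53 of 59 members higher and 1 lower, with a median log2 difference of 2.64, beside 35.8% higher and 36.9% lower over all genes. The contrast shares its 7 tissues and its low-count filter with the one above. Of single members Hist1h2ai was higher by 3.70 ± 0.27 (SE), Hist1h2ap by 3.53 ± 0.33 and Hist1h2ak by 3.43 ± 0.22. Hist1h1b, Hist1h3g, Hist1h2an, Hist1h3c, Hist1h2bn, Hist1h2bh and Hist1h2af were higher by 3.34 to 3.17. Class medians were 2.92 for H3, 2.91 for H2A, 2.64 for H1, 2.62 for H2B and 2.18 for H4. Hist1h2bc was again the member that was lower, at -2.70 ± 0.27 (10.0 against 53.7 CPM, adjusted p = 3.39e-16, edgeR). The replicate block left the counts at 53 and 1.

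Genes that act with the members were taken from lists. Over all genes tested, 38.5% were higher in marrow than in the 7 tissues and 43.3% lower. Mitosis genes, which drive chromosome segregation, were higher in marrow than in the 7 tissues in 22 of 22 cases tested (median log2 difference 3.21), led by Cenpe, a kinetochore motor, at 4.44 ± 0.17 (SE). DNA replication genes were higher in 26 of 28 and lower in 0 (median 1.75), led by Rrm2, the ribonucleotide reductase subunit made in S phase, at 4.06 ± 0.18. Histone gene transcription and mRNA processing factors were higher in 11 of 15 and lower in 1 (median 0.33). Among them E2f1, an S-phase transcription factor, was at 1.97 ± 0.18, Slbp, the hairpin-binding protein, at 1.77 ± 0.09 and Eri1, an exonuclease that trims histone mRNA ends, at 1.38. Histone chaperones, which carry histones to DNA, were higher in 10 and lower in 3 of 17 (median 0.36), with the S-phase chaperones Asf1b at 3.25 ± 0.23 and Chaf1a at 2.73 leading. The median difference of the members, 3.55, was above those of Slbp and E2f1.

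Most replacement histone variants are not limited to S phase. Of 10 tested against the 7 tissues, 7 were higher in marrow and 2 lower, beside 38.5% and 43.3% of all genes. Their median log2 difference was 0.98. H2afx, which marks DNA breaks when phosphorylated and has a transcript with the hairpin pattern, was at 3.39 ± 0.15 (SE) and Cenpa, the centromeric H3, at 2.88. H1f0, the linker histone of resting cells, was lower, at -3.48 ± 0.17. H1f0 thus differed in the direction opposite to the 5 tested members of the H1 class. Against spleen, 22 of 22 mitosis genes and 19 of 26 replication genes were higher in marrow (medians 1.15 and 0.61), with 0 and 1 lower. Processing factors gave 4 higher and 3 lower of 14 (median 0.04), with Slbp at 0.73, and chaperones 4 higher and 7 lower of 17 (median -0.06). Over all genes tested against spleen, 35.5% were higher and 35.7% lower. Neither processing factors nor chaperones were higher more often than that.

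The genes most like the summed level over the 9 tissue means of control mice were Fbxo5, Kif22, Ndc80, Kif18a and Skp2, with Pearson r from 0.995 to 0.993 among 17493 genes compared. Fbxo5 and Skp2 encode cell cycle regulators, Kif22 and Kif18a mitotic motors and Ndc80 a kinetochore protein. The 50 replication and mitosis genes had a median r of 0.953 and all genes one of 0.329. With 9 points that share their libraries, these values are a description.

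The pseudogene Gm12481 split the libraries within tissues, and 4 Hist2 members split with it. Hist2h2aa1, Hist2h2aa2, Hist2h3b and Hist2h2bb had counts in 59, 59, 58 and 58 of the 59 libraries with Gm12481, and were at 0 in 136, 139, 138 and 137 of the 139 without it. In marrow, which divided evenly into 11 and 11, the mean counts of the libraries with Gm12481 were 79.5 for Hist2h2aa1, 274 for Hist2h2aa2, 153 for Hist2h3b and 100.3 for Hist2h2bb, and every library without it had 0 for all 4. Hist2h3c1 went the other way in part, at 0 in 47 of the 59 libraries and above 0 in 73 of the 139. Their neighbour Hist2h2ac did not split, with 48.2 CPM in marrow libraries with Gm12481 and 46.1 in those without. In marrow, 4 of 60 members were higher in the libraries with Gm12481 and none lower (edgeR, 0.721% higher and 1.19% lower over all genes). These were the same 4, and their result was fixed in advance because they had been singled out by this split. The test adds only that no other member passed.

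The split was not one of histone genes alone. Rps12, a ribosomal protein gene, was at 0 in all 59 libraries with Gm12481 and above 0 in 115 of the 139 without, and its pseudogene Rps12-ps3 had mean counts of 536 and 1.06. The 9 abundant features held a median of 76.7% of the libraries with Gm12481 (84.8% at most) and 90.4% of those without (79.9% at least). Each mouse had 0 to 8 of its 9 libraries with it. Of control libraries 37 had Gm12481 and of treated libraries 22, with none among the treated skin or treated spleen libraries. Together with Hist2h3c1 the 4 members made 11.1% of the summed count in libraries with Gm12481 and 0.340% in those without. Without these 5 genes, the ratio of marrow to the 7 tissues was 7.12. In control mice the mean sum without them was still higher in libraries with Gm12481 in each of the 9 tissues. It was 5697 against 4819 CPM in marrow and 681 against 576 in lung. In treated mice the direction differed between tissues, with 4359 against 4878 CPM in marrow and 521 against 506 in kidney. These differences in the sum were not tested.

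**Figure D3:**
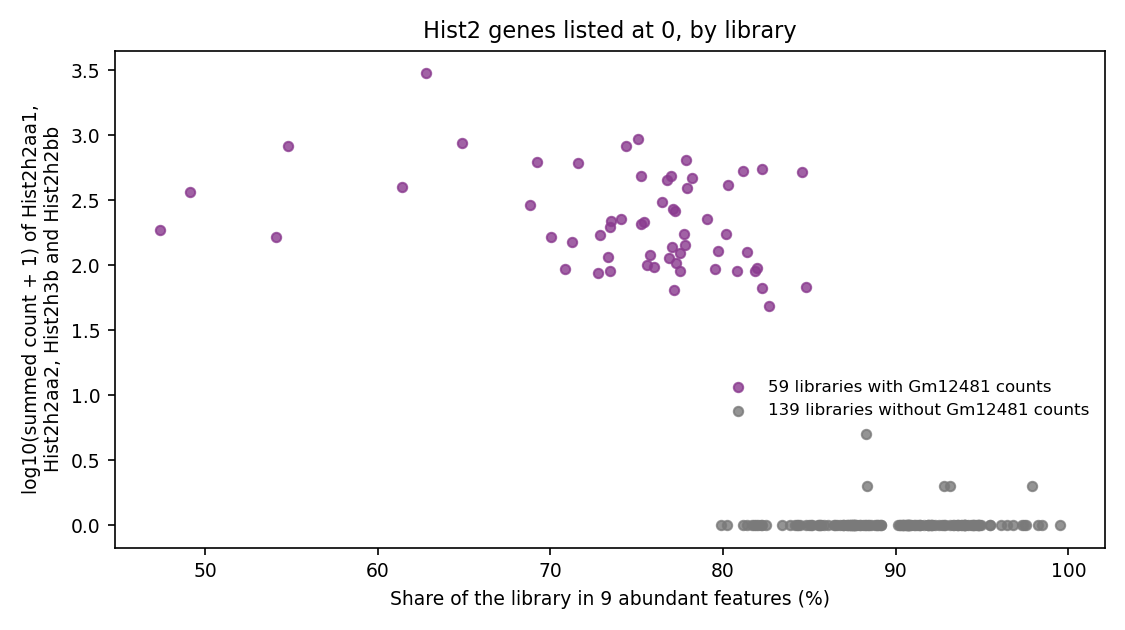
Summed count of Hist2h2aa1, Hist2h2aa2, Hist2h3b and Hist2h2bb, as log10(count + 1), against the share of each library in the 9 abundant features (%), for the 59 libraries with Gm12481 counts and the 139 without. The 2 kinds form separate groups of points, with medians of 76.7% and 90.4% on the horizontal axis.

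No member passed the test for the antibody in any tissue with edgeR, DESeq2 or limma-voom. Of 60 members tested in marrow, 0 passed with edgeR, and 17 (17 with DESeq2, 18 with limma-voom) had an unadjusted p under 0.05, all with estimates below 0. Over all 12891 genes tested in marrow, 0.00776% passed and 7.01% had an unadjusted p under 0.05. The share among members was 28.3%. Such shares of all genes, here and below, count both directions. The estimate was below 0 in 59 of 60 members, with a median log2 difference of -0.30. Members moved together over the marrow libraries (median pairwise r of 0.54), so their estimates are not separate results. The treated sum was 4752 ± 1198 CPM (3099, 4513 and 6427; SD, n = 10), within the range of controls. Hist1h3f had the smallest p, from 97.6, 147 and 228 CPM in controls to 79.5, 127 and 163 in treated mice, at -0.40 ± 0.13 (SE, p = 0.00594, adjusted p = 0.594). Hist1h4m was at -0.39 ± 0.13, Hist1h3d at -0.46 ± 0.16 and Hist2h2be, the one member above 0, at 0.19 ± 0.16. The arms overlapped in each of these genes. The count of 17 was not steady: with 1 of mice 3, 4, 9, 20, 33, 41, 68, 70 and 71 left out it was 8 to 11.

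Markers of marrow cell types were compared between the arms in the same way. All 10 mature neutrophil markers lay below 0 in treated marrow, 7 of them at an unadjusted p under 0.05 (median -0.28), and their mean log2 level ran from 10.1 to 10.9 in controls and from 9.77 to 10.54 in treated mice. Granulocyte precursor markers were below 0 in 6 of 6 (median -0.20), while 10 of 11 erythroblast markers (median 0.26) and 5 of 5 haematopoietic progenitor markers (median 0.28) lay above 0. None of these markers passed. Mitosis and replication genes stayed near 0, with medians of -0.04 and -0.02. The part of cell make-up in the members' values was not tested.

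In females the median marrow estimate was -0.55, with 38 of 60 members at an unadjusted p under 0.05 (7.28% of all genes), and in males it was -0.05 with 1 of 60 (4.19%). No member passed in either sex (0% and 0.00776% of all genes). The sums were 5217 ± 1502 CPM in 6 control and 3923 ± 723 in 5 treated females (3068, 5085 and 6891 against 3099, 4036 and 4933). In males they were 5514 ± 944 and 5580 ± 996. The test of the sex difference itself gave 0 members passing, as for all genes (0%), and 11 of 60 at an unadjusted p under 0.05 (4.52% of all genes). Hist1h2ah had the smallest p, with 29.7 CPM in control and 11.1 in treated females, and 19.4 and 24.2 in males, a difference between the sexes' log2 effects of 1.70 ± 0.44 (SE, edgeR, p = 0.0007, adjusted p = 1). Hist1h3d, at 0.92 ± 0.27, and Hist1h2ac, at 0.77, were next. In the other direction lay Hist1h2br at -0.58, Hist1h2ao at -0.74 and Hist1h2bh at -0.21. In the other 8 tissues 0 members passed this term, beside 0.00835% of all genes in spleen and 0% in each of the others.

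The kind of library also bears on the marrow values. With the kind as a term, the median was -0.33 and 22 of 60 members had an unadjusted p under 0.05, beside 7.7% of all genes. Among the 11 libraries with Gm12481 (5 control, 6 treated), the median was -0.52 and 46 of 61 had an unadjusted p under 0.05, beside 13.2% of all genes, and 0 passed beside 0.00717%. Their sums were 4766, 6439 and 6946 CPM (lowest, median and highest) in controls and 3366, 4513 and 6427 in treated mice. Among the 11 libraries without it (7 control, 4 treated), the median was -0.06 and 0 of 56 had an unadjusted p under 0.05, beside 4.33% of all genes, with 0% passing. The difference between the kinds was not tested.

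**Figure D4:**
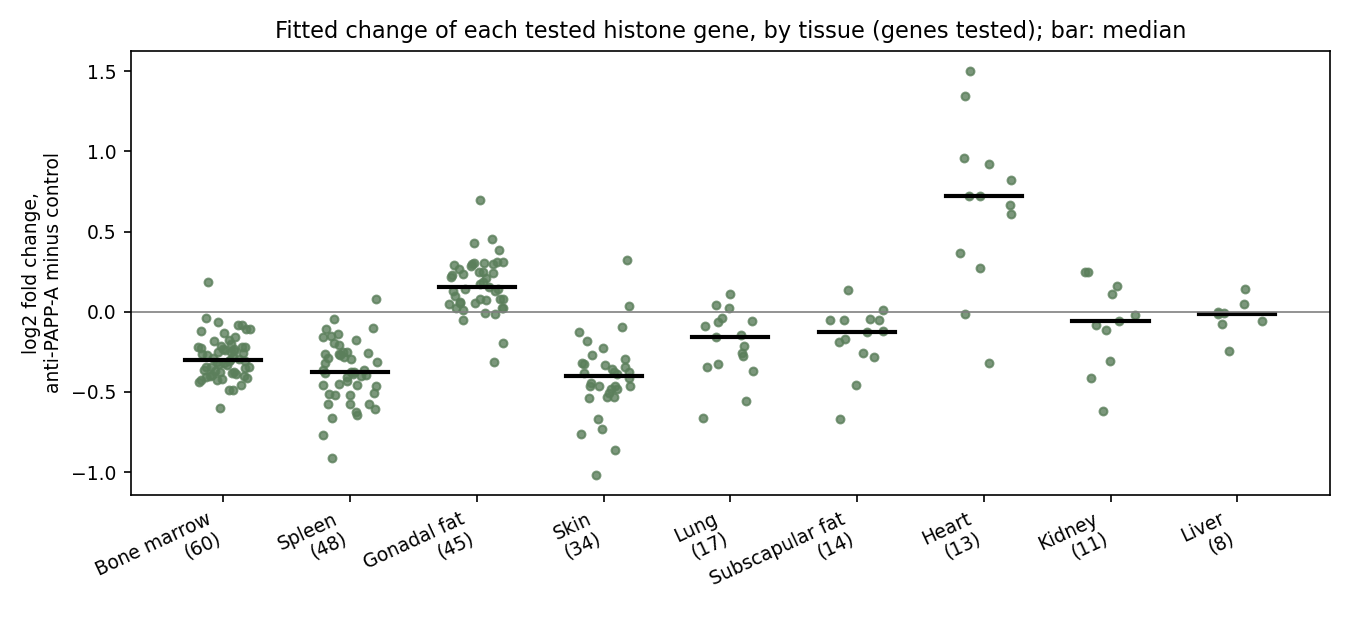
Fitted log2 difference, anti-PAPP-A minus control, of each tested member in each tissue, with a bar at the median. Medians lie at -0.30 in marrow and -0.38 in spleen and at 0.72 in heart, where they rest on 1 library, and no member passed the test in any tissue.

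In spleen 0 of 48 members passed (0% of all genes), and 16 (33.3%) had an unadjusted p under 0.05, all with estimates below 0, beside 5.32% of all genes. The estimate was below 0 in 47 of 48, with a median of -0.38. Members moved together in spleen too (median pairwise r of 0.56), so these estimates are not separate results either. Without control mouse 22, whose spleen had the highest sum, 0 of 47 passed (0%), 11 had an unadjusted p under 0.05 (5.09% of all genes) and the median was -0.25. Treated spleens lay within a narrow band of 1673 to 2513 CPM in sum (median 2009), while control spleens spread beyond it on both sides, from 1442 to 5137. Hist1h4b had the smallest p, from 9.83, 25.8 and 82.5 CPM in controls to 5.85, 15.4 and 24.97, at -0.91 ± 0.28 (SE, edgeR, p = 0.00298, adjusted p = 0.85). Hist1h4j was at -0.66 and Hist1h2ak at -0.63, and Hist1h2bc, the one member above 0, at 0.08. Erythroblast markers were below 0 in 8 of the 8 tested of 12, with 7 at an unadjusted p under 0.05 (median -1.09). Their mean log2 level ran from 2.01 to 7.03 in controls and from 3.18 to 4.996 in treated spleens. Mitosis genes were below 0 in 21 of 21 (median -0.20, 2 at an unadjusted p under 0.05). The part of red cell precursors in the members' values was not tested. Only control spleens had Gm12481, and with the kind of library as a term 10 of 48 members had an unadjusted p under 0.05 (median -0.32), beside 5.09% of all genes.

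In skin 0 of 34 members passed (0% of all genes) and 6 had an unadjusted p under 0.05, all with estimates below 0 (3.19% of all genes), with a median of -0.40. The lowest estimates by p were Hist2h3c2 at -1.02 ± 0.32 (SE, edgeR, p = 0.0037, adjusted p = 1; 22.9 to 10.9 CPM), Hist1h2bg at -0.86 and Hist1h2bn at -0.76. Above 0 were Hist3h2a at 0.32 and Hist1h3e at 0.04. With the kind of library as a term, 1 of 34 had an unadjusted p under 0.05 (median -0.33, 3.07% of all genes), and no treated skin had Gm12481. Hair matrix markers were below 0 in the 4 tested of 6 (median -1.34, mean log2 level 3.16 to 8.40 in controls and 2.67 to 5.94 in treated skin), and mitosis genes in 15 of 16 (median -0.43). Over the 21 skin libraries not in doubt, the summed member level had an r of 0.35 with hair matrix markers. The rho was -0.02, and r was -0.13 without the 2 libraries farthest in those markers. The part of hair matrix cells or of dividing cells in the members' values was not tested. The lowest skin sum, 270 CPM in treated mouse 36, came from the shallowest of all libraries.

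Gonadal fat had 0 of 45 members passing (0%) and 0 at an unadjusted p under 0.05 (5.06% of all genes), with a median of 0.15. Hist1h2bk (0.69), Hist1h2ak (0.46) and Hist1h1c (0.13) had the smallest p above 0 and Hist1h2ag (-0.31), Hist1h2ai (-0.20) and Hist1h4f (-0.05) below it. In lung 0 of 17 passed (0%) and 2 had an unadjusted p under 0.05 (6.88%). They were Hist1h2bc, from 21.7, 40.1 and 103 CPM in controls to 21.2, 30.4 and 38.5 (log2 -0.66 ± 0.24, SE, edgeR, adjusted p = 0.712), and Hist1h1d at -0.56. Hist1h1c was at -0.28, and above 0 were Hist2h2ac (0.11), Hist2h4 (0.04) and Hist1h1e (0.02). In subscapular fat 0 of 14 passed (0%) and 1 had an unadjusted p under 0.05 (2.37%), Hist1h1d at -0.67. Hist2h2ac (-0.46) and Hist1h1e (-0.19) were next below 0, and Hist1h2bc (0.14) and Hist2h2be (0.01) lay above it.

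Kidney had 0 of 11 members passing (0%) and 2 at an unadjusted p under 0.05 (4.23%), Hist1h1c at 0.24 and Hist1h3f at -0.62. Hist3h2a (0.25) and Hist1h1e (0.16) were next above 0, and Hist2h4 (-0.41) and Hist2h2ac (-0.30) below it. The 8 members tested in liver gave 0 passing (0%) and 0 at an unadjusted p under 0.05 (3.55%), from Hist1h4c at -0.25, Hist1h1c at -0.08 and Hist1h4d at -0.06 to Hist1h2bc at 0.05 and Hist1h3e at 0.14. In heart 0 of 13 passed (0%) and 5 had an unadjusted p under 0.05 and an estimate above 0 (2.72%), with a median of 0.72, while DESeq2 gave 0 and limma-voom 1 at an unadjusted p under 0.05. Hist2h4 (1.35), Hist1h4c (0.96) and Hist1h4h (0.72) led, with Hist1h2bc (-0.32) and Hist2h2be (-0.02) below 0. Without the heart of mouse 56, 0 of 13 passed (0%), 0 had an unadjusted p under 0.05 (2.22%) and the median was 0.04.

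The members were then related to proliferation, scored in each library as the mean log2(CPM + 2) of the 50 replication and mitosis genes, none of which is a member. In spleen the score ran from 4.32 to 5.62 over the 22 mice, and the log2 summed level followed it with a Pearson r of 0.85 and a Spearman rho of 0.75 (r = 0.73 without the 2 mice farthest from the median score). Within controls r was 0.90 (n = 12) and within treated mice 0.61 (n = 10). In marrow the score had a narrow range, 5.42 to 5.97, and r was 0.38 with rho 0.24 (r = 0.22 without the 2 farthest). In gonadal fat, not a blood-forming tissue, the score ran from 2.48 to 5.30, with r and rho of 0.95 and 0.96 (r = 0.95 without the 2 farthest). Skin gave an r of 0.83 over the 21 libraries not in doubt (rho 0.74, 0.73 without the 2 farthest). These are descriptions, and depth and library kind are shared by both axes.

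**Figure D5:**
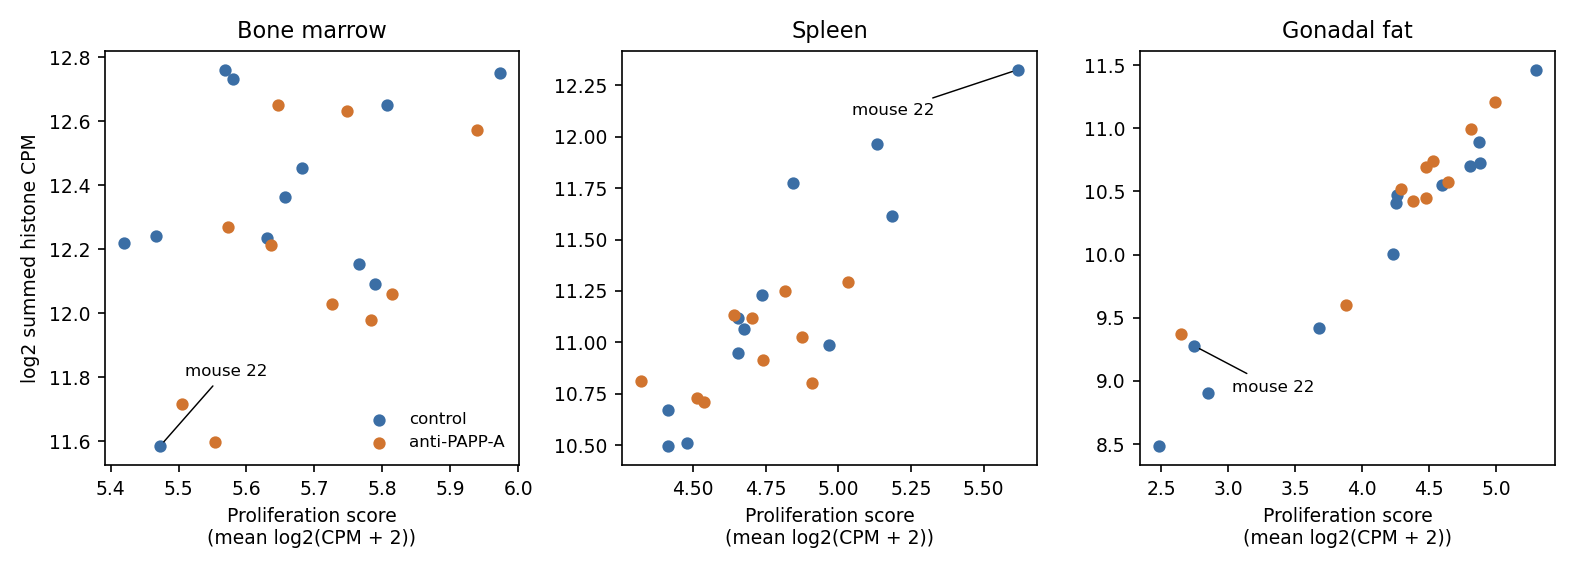
Log2 summed CPM of the 68 members against the proliferation score, mean log2(CPM + 2) of 50 genes, in marrow, spleen and gonadal fat, 1 point per mouse, control in blue and anti-PAPP-A in orange, with mouse 22 marked. Spleen (r = 0.85) and gonadal fat (r = 0.95) form rising bands, and marrow (r = 0.38) covers a score range of 5.42 to 5.97 only.

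A fit of each gene on the score, with sex and arm as terms, gave a slope for each member. In spleen 34 of 48 members rose with the score and 0 fell (edgeR, adjusted p under 0.05), beside 1.81% and 0.468% of all genes, with a median slope of 1.49 log2 units per unit of score. The score's own genes are among all genes, and 16 of 21 tested mitosis genes and 6 of 24 replication genes rose. Hist3h2a, an H2A gene of the Hist3 cluster, was steepest, at 2.46 ± 0.25 (SE, adjusted p = 2.19e-06). Hist1h2ag (2.24 ± 0.30), Hist1h2bk (2.06 ± 0.42), Hist1h4a (1.98 ± 0.33) and Hist1h3h (1.93 ± 0.49) followed. Hist1h1b, Hist1h4k, Hist1h2ae, Hist1h1a and Hist1h3b had slopes from 1.90 to 1.72. Hist1h2bc, the member highest in kidney, had a slope of 0.15 ± 0.56 (adjusted p = 1), and Hist1h2be one of 0.68 (adjusted p = 0.509). All 5 tested H1 genes rose, as did 10 of 12 H4, 7 of 10 H3, 7 of 11 H2A and 5 of 10 H2B genes.

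The spleen slopes rested in part on control mouse 22, whose spleen had the highest sum (5137 CPM) and score (5.62). Without it 13 of 47 members rose (0.402% of all genes), with a median slope of 1.31, and Hist3h2a stood at 2.50. Without the 2 mice farthest from the median score 12 of 47 rose (0.267%), and 40 had an unadjusted p under 0.05 (9.51% of all genes). Red cell precursor markers moved along the same axis: 7 of the 8 erythroblast markers tested rose with the score, among them Ermap at 4.23 ± 0.54 and the band 3 gene Slc4a1 at 3.98. The summed member level followed the erythroblast markers in spleen with an r of 0.90 (rho 0.89, 0.89 without the 2 farthest). With the T cell markers r was -0.51 (rho -0.60, -0.53). For markers, the 2 farthest are the mice farthest from the median of the marker mean, not of the score. The parts of dividing cells and of red cell precursors were not told apart by a test.

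In marrow no member passed for the slope (0.0155% of all genes), while 21 of 60 had an unadjusted p under 0.05, 20 with a positive and 1 with a negative slope (12.9% of all genes), with a median of 0.93. DESeq2 was not run for slopes, and limma-voom gave 0 passing and 17 at an unadjusted p under 0.05. Hist1h1b had the smallest p, at 1.59 ± 0.41 (SE, edgeR, p = 0.000705, adjusted p = 0.135), then Hist1h3a at 1.82 and Hist1h1e at 1.18. Among negative slopes Hist1h2ao had the smallest p, at -4.19 ± 1.31, and it shares its coding sequence with Hist1h2ap. Without the 2 farthest mice 2 members had an unadjusted p under 0.05 (5.57% of all genes, and 0% passing) and the median was 0.34. Leaving out mouse 4 took the count of 21 to 5, mouse 56 to 10, mouse 33 to 13 and mouse 20 to 32. With the kind of library as a term 1 of 60 passed (0.178% of all genes). Markers of marrow cell types also went with the marrow sum. The r was 0.84 for granulocyte precursor markers (rho 0.74, 0.80 without the 2 mice farthest in the marker mean). It was 0.84 for mature neutrophil markers (rho 0.86, 0.81) and -0.59 for haematopoietic progenitor markers (rho -0.58, -0.40). Between the marrow and spleen sums of the 22 mice, as deviations from their groups, r was -0.35 (rho -0.13, -0.0030 without the 2 farthest). Mouse 22 had both the lowest control marrow, 3068 CPM from the shallowest marrow library (348391 counts outside the abundant features), and the highest spleen.

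In gonadal fat the members moved together, with a median pairwise r of 0.81 among 52 members, against 0.56 in spleen, 0.54 in marrow and 0.14 in subscapular fat. Heart had a median of 0.89 among 54 members over 21 libraries that include the heart of mouse 56. The summed member level in gonadal fat followed macrophage markers with an r of 0.77 (rho 0.67, 0.76 without the 2 mice farthest in the marker mean, n = 21). With fat cell markers r was -0.75 (rho -0.70, -0.70). Histone chaperones (r = 0.91) and replacement variants (r = 0.94) rose with the sum in gonadal fat. Which cells carried the counts was not tested.

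The heart of treated mouse 56, a male, had the highest summed level of any library. Its 11623 CPM were 36.4 times the median of the other 21 hearts (320, range 185 to 501) and 2.17 times the control marrow mean. Nearly the whole set was high: 63 of 68 members lay above all 21 other hearts and 52 above all marrow libraries. Hist1h1a had 375 CPM (at most 3.28 in the other hearts), Hist1h3c 316 (at most 2.81) and Hist1h1c 662 (at most 115). Hist1h2bc, at 27.3 CPM, stayed within the range of the other hearts (12.8 to 55.3). The proliferation score was 6.25, against 2.17 to 2.70. Genes of T cells and their precursors were high in the same library: Rag1, the recombinase of developing lymphocytes, had 3264 CPM (0 to 30.98 elsewhere in heart), Dntt, which adds bases at receptor gene joints, 775, Cd8a 799.96 and Cd4 452. The T cell markers had a mean log2 level of 8.35 (at most 3.07 in the other hearts). The B cell precursor markers, a list of 6 that includes Rag1, Rag2 and Dntt, had one of 5.24 (at most 2.26), with Vpreb1 at 0.325 CPM (at most 1.53) and Igll1 at 0 in every heart. The heart muscle gene Myh6 had 1472 CPM, below the 2379 to 28049 of the other hearts. The tissue or cells behind these values were not tested.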

How the data were processed

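Per the labels' protocols, 100 ng of total RNA from each whole tissue was made into a stranded library (12 PCR cycles). FastQC 0.11.5, Salmon and build mm10 come from the submitters' processing notes. Values are gene counts as the authors deposited them, all whole numbers. Annotation, strand setting and rounding were not given in the sources used here. Members, lists and tests were chosen with earlier results of these data known.

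CPM was computed here from the deposited counts outside 9 features, each averaging at least 0.9% of a library. Counts were tested with edgeR 4.0.16 in R 4.3.3 (two-sided quasi-likelihood F-tests with sex as covariate, TMM scaling and the filterByExpr filter), with Benjamini-Hochberg adjustment over all genes tested and a threshold of 0.05. Tissue contrasts used control mice only, and slopes had sex and arm as terms. Libraries were called in doubt where own-tissue markers lay more than 2 below the tissue median (log2) or fewer than 1000 genes had 10 counts.

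Named members were up to 10 per direction with the largest change among those passing, otherwise the 3 per direction with the smallest p, the 3 highest per class in marrow, the most even members and those highest outside marrow, and 6 with known polyadenylated forms. For the sex term names are given for marrow only. Alternatives were DESeq2 1.42.0, limma-voom (limma 3.58.1), RLE scaling, no filter, the abundant features left out, doubted libraries left out, the 2 mice farthest in score left out and each mouse left out. Fits with or within the kind of library, slopes without each mouse, the heart without mouse 56 and the sum without 5 Hist2 members were chosen after seeing the data.

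The tissues of control mice come from the same animals, so mice pair marrow with spleen. Over 11514 genes, the correlation of a mouse's deviations in the 2 tissues had a median of 0.0624 (-0.156 to 0.408), over 0.1 in 5 of 12 mice, and the main fit had no block. Total counts were 4138419 to 19517950 per library (median 8950258). The edgeR fits of treatment in marrow, of the slope in marrow and of marrow against spleen were first tried on simulated data. The other fits were not. Python 3.11.15 with pandas 2.3.3, numpy 2.4.6, scipy 1.17.1 and matplotlib 3.10.9 served for tables and figures.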

Additional observations from a re-analysis of the deposited data

Results flagged for a closer look

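The summed level of the 68 members in the heart of treated mouse 56, 11623 CPM, lay far from the other 9 treated hearts, of which the next reached 501. The gap took 0.975 of the range of the 10 libraries. Of 21 sets of values examined in this way it was the one that stood apart. Some sets were the summed level in the treated libraries of each tissue and in marrow by arm and sex. The others were named members in treated marrow and spleen. The rate of about 1 in 20 that chance is taken to give is a general allowance for many looks. It does not measure the size of this gap. No member passed the sex by treatment test in any tissue.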

How the results depend on the processing

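Of the values for whole comparisons, 225 kept their direction and size under the alternatives other than leaving out a mouse, and 5 moved. Without the low-count filter, 1 member was lower in marrow than in spleen and 1 had a negative slope in spleen. Without the 2 mice farthest from the median score 12 members rose with it in spleen, and with the kind of library as a term 1 rose in marrow. The ratio of marrow to the 7 tissues was 8.97 for H3 genes alone. Leaving out each mouse gave 13 to 36 members rising in spleen (13 without mouse 22) and 41 to 50 higher in marrow than in spleen. With the mouse as replicate block 47 were higher in marrow than in spleen, and 56 and 53 in marrow and spleen against the 7 tissues. Single members near 0 changed sign. Hist1h4f in gonadal fat was at 0.028 with DESeq2 and 0.014 without doubted libraries. In heart, Hist2h2be was at 0.017 with DESeq2 and 0.040 with the kind of library as a term. Hist1h1e in lung was at -0.014 without the filter and -0.0018 without doubted libraries. Hist1h2bc in spleen was at -0.065 with limma-voom and ran from -0.0052 (without mouse 36) to 0.203 (without mouse 56) when a mouse was left out, and Hist2h2be in subscapular fat was at -0.018 with DESeq2. The cause was not tested. In lung, both fat tissues, kidney, liver and heart 8 to 45 members passed the filter on low counts, and the others had no test of treatment there.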
